A study of Homo sapiens with 22 samples.

Results

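The RNA output of a pool of tagged luciferase reporters was read in A549, a human lung adenocarcinoma cell line, and set against the plasmid pool that had gone into the cells. A tag entered if it had at least 100 reads in each of the 2 plasmid input libraries, and 211385 of 237733 tags (88.9%) did. These tags held 99.7% of the reads of each of the 7 libraries described here, out of 22 in the series. They were the 5 RNA libraries of A549 cells given the vehicle DMSO (204.6 to 349.9 M reads in total, 1 library per transfection), the A549 input (333.5 M reads) and the H520 input (265.8 M reads). The constructs were ectopic, that is carried on plasmid and not in the chromosome. The labels mark the inputs as separate versions of the pool, v1 for A549 and v2 for H520, and each is a single library. For comparison, 5 DMSO libraries of H520, a lung squamous cell carcinoma line, and 5 libraries of A549 exposed to 10 µM benzo(a)pyrene (BaP) for 18 h were used. The labels do not say whether the 5 transfections used separate cultures, so every p-value measures the spread between transfections alone. Tag files hold no endogenous genes, so the line's identity was not checked here.

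In a massively parallel reporter assay, candidate regulatory DNA fragments are cloned into a reporter plasmid, and each plasmid carries a short tag that is transcribed with the reporter. A fragment that raises transcription gives more RNA copies of its tag than the plasmid pool holds, and one that lowers transcription or the stability or processing of the RNA gives fewer. Because the tag is itself part of the RNA, its own letters can also be read by the cell. Activity is given here as log2 of the RNA level over the input level, both in TPM (reads of the tag per M reads) plus 0.5, minus the median of the library. An activity of 0 is therefore the typical tag and 1 is a 2-fold excess over it. Which fragment each tag marks was not analysed here. Where a fragment carries more than one tag, its tags are not independent, and a number of tags is not a number of fragments.

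A tag has 15 bases, of which the first 12 vary and the last 3 are the same throughout. Being designed sequence, a tag has no genome coordinate. Each is printed 5′ to 3′ as the files list it, and the sources used here do not say whether that is the strand of the transcript. The first set holds the 6 tags with the highest activity against the A549 input, and the second the 6 with the highest against the H520 input. The third set is the 4 lowest tags, in which capitals mark a shared run of 7 letters, and the fourth the 3 tags closest to 0. All had at least 500 reads in both inputs.
A549-input high 1: ggagtaatccgcggc
A549-input high 2: atccggtatcatggc
A549-input high 3: gcagcgtacgcaggc
A549-input high 4: gtattgatcggtggc
A549-input high 5: gaagagtagctaggc
A549-input high 6: cttagctatattggc
H520-input high 1: ggtcgttataagggc
H520-input high 2: cggtacttgcaaggc
H520-input high 3: ggccgtccaacgggc
H520-input high 4: atactaccggaaggc
H520-input high 5: tgatgcggtaaaggc
H520-input high 6: gaactttgatatggc
Low 1: GGTAAGTaagcgggc
Low 2: GGTAAGTaattcggc
Low 3: atcaGGTAAGTaggc
Low 4: GGTAAGTccataggc
Typical 1: gcttatagcatgggc
Typical 2: attgacttgcggggc
Typical 3: aagtcgcatttgggc

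Most tags differed little from the typical tag. Over the mean of the 5 transfections, 90% of activities lay between -0.35 and 0.49, and 199459 tags (94.4%) lay between -0.5 and 0.5. The tails were unequal: the highest 0.1% of tags began at 3.93 and the lowest 0.1% at -0.70. The extremes were 4.94, a 30.7-fold excess over the typical tag, and -1.68. The pseudocount of 0.5 TPM limits how low a tag with few input reads can fall. Against the H520 input the highest activity was 8.17, or 288-fold. The width from the 5% to the 95% point was 0.857, 0.898, 1.09, 0.887 and 0.862 in transfections 1 to 5. Transfection 3 stood apart from the other 4, which lay between 0.857 and 0.898. Its lower side spread most, with 317 tags at -1 or under against 34 to 65 in the others.

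**Figure D1:**
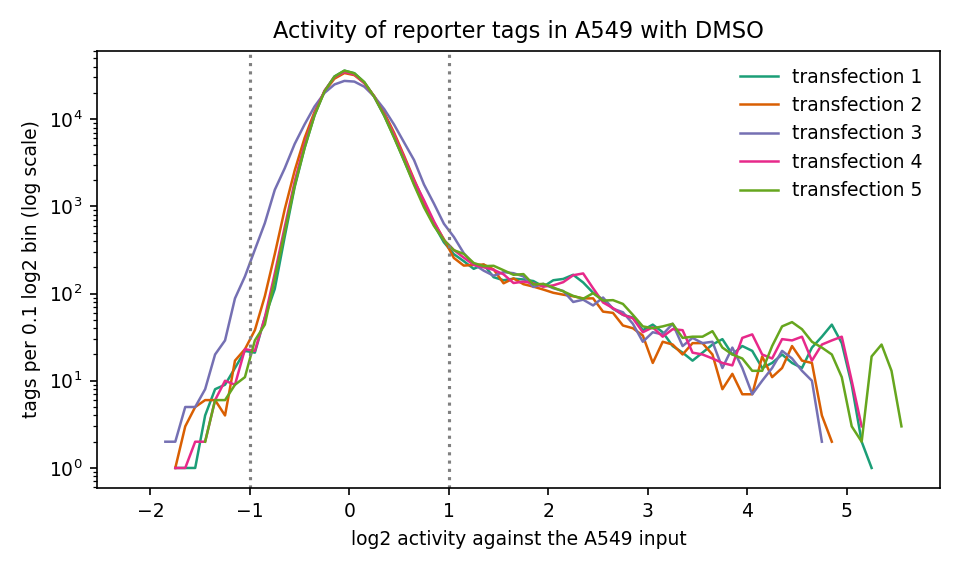
Number of tags (log scale) in bins of 0.1 by log2 activity against the A549 input, 1 line per A549 transfection with DMSO, with dotted lines at 2-fold. The upper tail reaches past 4 in all 5 transfections, the lower tail ends near -2, and transfection 3 is wider around 0.

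At 2-fold, 2068 tags (0.978% of those tested) lay above the typical tag and 12 (0.00568%) below, by limma's treat test with Benjamini-Hochberg adjusted p under 0.05. All 2068 were above 2-fold in each of the 5 transfections, which is a description, since the same libraries were used to call them. Against the H520 input, the same test placed 2260 tags (1.07%) above and 31 (0.0147%) below. The inputs shared 1921 of the tags above, 92.9% of the A549-input set and 85.0% of the H520-input set, and 9 of those below. With the input entered as a sixth library in edgeR, 1296 tags were above and 12 below. That fit gives the input the spread found among the RNA libraries, since a single library shows none of its own. Other settings moved the calls below 2-fold: none was left in DESeq2 (27 at unadjusted p under 0.05) or in limma with a pseudocount of 0.1 (54). Without transfection 1 there were 4 in limma, and without transfection 2 or 4 there were 5. The treat test takes the single input as known, so its p-values leave out the error of the input. The mean activity was also 1 or more in the BaP libraries for all 2068, which share the A549 input. In H520 cells 1210 of them reached 1 against the H520 input, and 579 were under 0.5.

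A small number of tags took a large part of the RNA. The 3143 tags (1.49%) at a mean activity of 1 or more held 2.07% of the A549 input reads and 15.3 ± 3.43% of the RNA reads (SD, n = 5). The top range, 4 and over, held 198 tags (0.0937% of tags), with 0.350% of A549 input reads and 0.103% of H520 input reads. Its share of the RNA was 8.40%, 5.37%, 4.99%, 8.57% and 10.1% in transfections 1 to 5, a mean of 7.48 ± 2.20%. Transfections 2 and 3 were the low libraries and transfection 5 the high one. The range from 3 to 4 held 2.58 ± 0.827% of the RNA, that from 2 to 3 (885 tags) 2.80 ± 0.262%, and that from 1 to 2 (1808 tags) 2.42 ± 0.173%. These 3 ranges held about as much each, although their numbers of tags differed. The range from 0.5 to 1 (6803 tags) held 4.12 ± 0.101%.

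The middle range, -0.5 to 0.5, held 94.1% of the A549 input reads and 80.1 ± 3.33% of the RNA. It gave up most in transfection 5 (76.2%) and least in transfection 2 (83.7%). The 1931 tags from -1 to -0.5 held 0.873% of input reads and 0.470 ± 0.0116% of RNA reads. The 49 tags under -1 held 0.0312% of the input and 0.01005 ± 0.000379% of the RNA. The ranges were set by the same RNA libraries, so these shares describe the tags and test nothing.

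**Figure D2:**
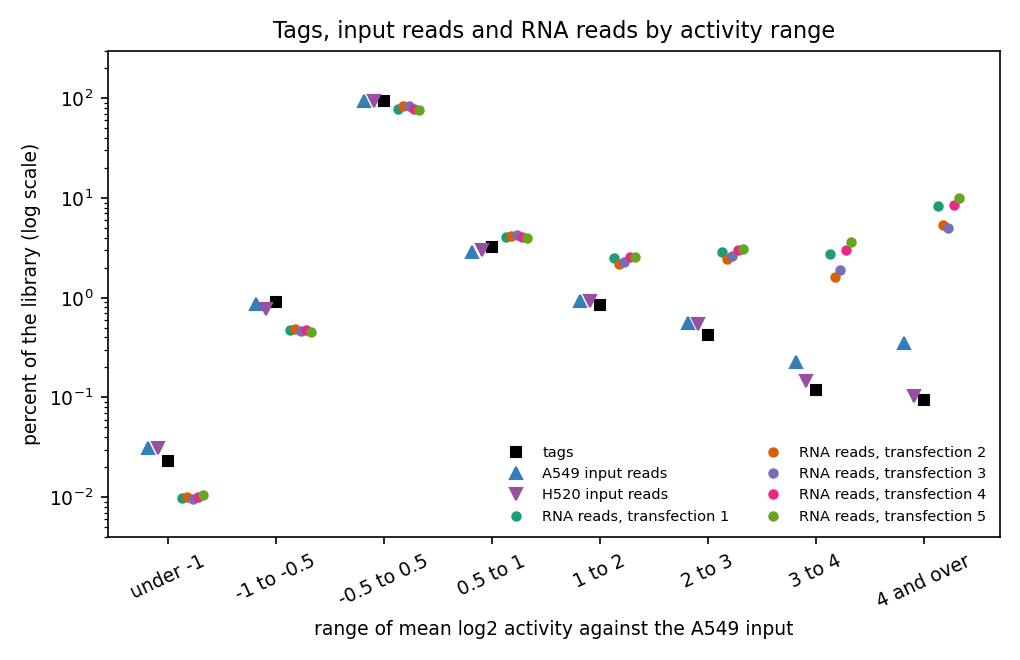
Percent of tags, of reads in each input and of RNA reads in each of the 5 A549 DMSO transfections (log scale), by range of mean log2 activity against the A549 input. In the range of 4 and over, 0.0937% of tags held 4.99% to 10.1% of the RNA reads, and the A549 input lies above the H520 input.

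The single tags at the top show this. The tag ctaagttagctgggc had the highest mean RNA level, 2034 ± 771 TPM, with 1985, 1415, 1207, 2471 and 3091 TPM in transfections 1 to 5. It stood at 91.0 TPM in the A549 input and 16.1 TPM in the H520 input. The next, H520-input high 3, had 2149, 920, 806, 1955 and 2792 TPM, against 79.5 and 6.70 TPM in the inputs. The third, tagccgagaggtggc, had 1620, 1178, 974, 1956 and 2553 TPM. In all 3 tags transfections 2 and 3 were lowest and transfection 5 highest.

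The 6 tags highest against the A549 input behaved differently from these. A549-input high 1 had 570, 483, 450, 492 and 423 TPM of RNA in transfections 1 to 5, against 17.5 TPM in the A549 input and 9.25 TPM in the H520 input. Its activity was 4.94 ± 0.17, 30.7-fold above the typical tag (limma treat adjusted p = 9.14e-05). The libraries lay close together, and no input came near them. Tags named as high or low were picked by their activity in these same libraries, so their distance from the input is a description. The 6 tags had mean activities of 4.79 to 4.94 with SDs of 0.17 to 0.22. In H520 cells all 6 were below 0, at -0.58 to -0.08. Against the H520 input their A549 activity was 5.72 to 6.11.

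The 6 tags highest against the H520 input had activities of 7.69 to 8.17 on that scale but of 4.42 to 4.77 against the A549 input. H520-input high 1 had 1184, 508, 484, 1228 and 1544 TPM of RNA, against 42.9 TPM in the A549 input and 3.07 TPM in the H520 input. Transfections 2 and 3 were the low ones again. Its activity was 8.17 ± 0.83 against the H520 input, 288-fold (limma treat adjusted p = 3.38e-05), and 4.56 ± 0.83 against the A549 input, 23.6-fold. In H520 cells it was also high, at 4.15 ± 0.29. Where edgeR took the A549 input as a library, the adjusted p of these 6 tags ran from 0.0164 to 0.103. That test no longer called 4 of the 6 at an adjusted p of 0.05.

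The inputs held typical tags at like levels and parted in the upper tail. The ratio of A549 to H520 input TPM had a median of 0.992 for the 181223 tags with activity between -0.5 and 0.5 against the H520 input. It was 1.79 for the 140 tags from 4 to 5, 2.26 for the 127 from 5 to 6, 5.13 for the 27 from 6 to 7 and 8.18 for the 39 at 7 and over. Activity against the A549 input rose little over the last 3 of these ranges, with medians of 4.43, 4.42 and 4.53. In the 39 tags, the excess of the A549 input over the H520 input was 3.88% of the A549 RNA TPM, with an interquartile range of 3.75% to 4.11%. In the 333 tags at 4 and over it was 3.50% (2.42% to 4.01%). Lower down it was 3.06% from 3 to 4, 2.53% from 2 to 3, 5.13% from 1 to 2, 22.7% from 0.5 to 1 and -0.98% from -0.5 to 0.5. Whether reads derived from RNA are part of the A549 input was not tested. Nor was it tested whether the pool versions v1 and v2 differ in these plasmids. The 30.7-fold maximum and the order of the top tags hold for the A549 input only. Sorting by the H520 input also selects tags by their level in that library. The ratio was 0.676 in the range from -1 to -0.5 and 1.33 in the range from 0.5 to 1.

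**Figure D3:**
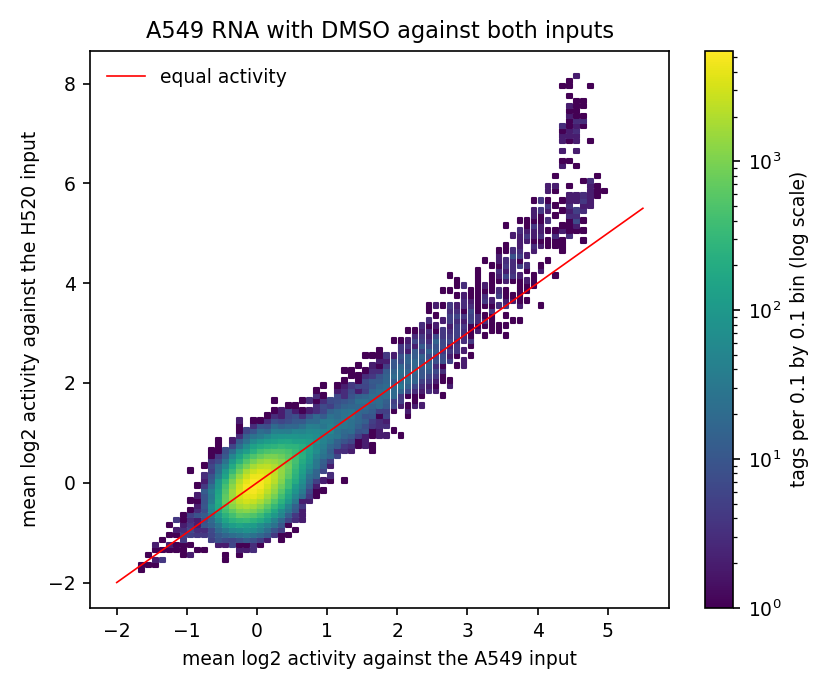
Mean log2 activity of A549 RNA with DMSO against the A549 input (horizontal) and the H520 input (vertical), with colour for the number of tags per bin (log scale) and a line of equal activity. Tags follow the line up to about 3, then rise to 8.17 against the H520 input while staying under 5 against the A549 input.

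The 450 tags at a mean activity of 3 or more fell into separate classes by how they varied between transfections. The difference of activity between transfections 5 and 2 was under 0.155 in 169 tags and over 1.07 in 281, with none between. Such shifts were not particular to these tags. In the range from 2 to 3 the difference was under 0.25 in 470 of 885 tags, 0.75 or more in 412 and between these in 3. In the range from 1 to 2 these numbers were 1016, 634 and 158 of 1808 tags, so the classes were not separate there. The steady 169 tags had mean activities of 4.21, 4.02, 3.99, 4.12 and 3.91 in transfections 1 to 5. The shifting 281 had 4.05, 3.06, 3.21, 4.21 and 4.61. In the 5 BaP libraries the steady class stood at 4.02 ± 0.21 and the shifting class at 3.97 ± 0.88, with 2.86, 3.21, 4.35, 4.52 and 4.90 in libraries 1 to 5. The classes were chosen on the DMSO libraries, so their values there are a description. The BaP libraries were not used to choose them, and the shifting class again had the larger spread. Library 5 was highest with both treatments, but the lowest was library 1 with BaP and 2 with DMSO. The BaP libraries carry the same transfection numbers and share the A549 input. Whether same-numbered libraries came from 1 transfection was not checked here, so this is not an independent test.

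The shifting class accounted for most of the spread in the share of RNA. It was chosen on transfections 5 and 2 of these same libraries, so its shares and the SDs below are a description. It held 7.95%, 4.22%, 4.25%, 8.67% and 11.3% of RNA reads in transfections 1 to 5, and the steady class 3.19%, 2.77%, 2.64%, 2.90% and 2.44%. The 3 tags with the largest SD among those above 2-fold with at least 500 input reads were shifting tags.
Large SD 1: cgtacgcttgacggc
Large SD 2: attagttcgggtggc
Large SD 3: agcgtacgatggggc
Large SD 1 had 402, 170, 146, 396 and 543 TPM of RNA, against 15.8 TPM in the A549 input. Transfections 2 and 3 were lowest and transfection 5 highest, as in the class. The 3 tags had SDs of 0.87 to 0.89 around activities of 4.37 to 4.47, and edgeR with the input as a library no longer called them (adjusted p = 0.0669 to 0.457). The 3 tags with the smallest SD lay much lower, at 1.37 to 1.51.
Small SD 1: ctacgttcaactggc
Small SD 2: gttatcgcgacgggc
Small SD 3: gtcataaggcttggc
Small SD 1 had activities of 1.36, 1.37, 1.35, 1.39 and 1.36 in transfections 1 to 5 (SD 0.016, limma treat adjusted p = 0.0154). Against the H520 input it was 1.04, and limma treat did not place it above 2-fold (adjusted p = 1). All 3 were higher in H520 cells, at 2.45 to 2.97, and that difference was not tested.

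In H520 cells the steady class divided again. Of its 169 tags, 94 had a mean activity under 0.5 there, with class means of -0.33, -0.33, -0.30, -0.31 and -0.31 in H520 transfections 1 to 5. In A549 the same 94 tags stood at 4.75, 4.43, 4.35, 4.62 and 4.39. The other 75 stood at 3.42 ± 0.05 in H520 and 3.48 ± 0.09 in A549. None of the 281 shifting tags was under 0.5 in H520, and they ranged there from 0.66 to 5.00. Among the 198 tags at 4 and over in A549, 89 were below 0 in H520, none lay between 0 and 1.5, and 109 were above. The H520 libraries set the division of the steady class but neither the ranges nor the classes. Whether the 94 tags mark 1 fragment or several was not analysed here.

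**Figure D4:**
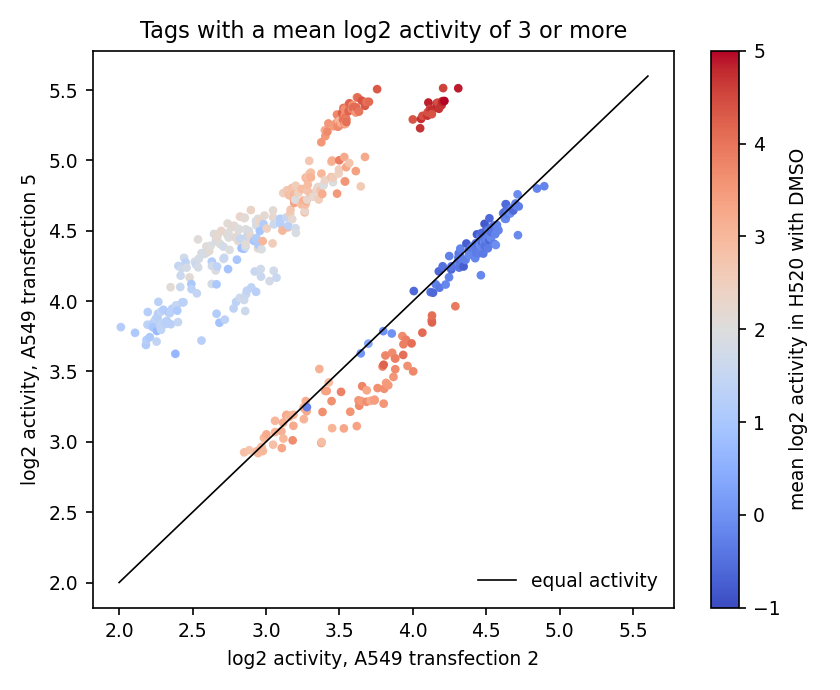
Log2 activity in A549 transfections 2 (horizontal) and 5 (vertical) of the 450 tags with a mean of 3 or more, coloured by mean log2 activity in H520 with DMSO, with a line of equal activity. The 169 steady tags lie along or below the line, 94 of them in dark blue (under 0.5 in H520), and the 281 shifting tags lie at least 1.07 above it.

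The lower tail was short, and nearly all tags under -1 shared a run of letters. Of the 49 tags there, 47 held GGTAAGT, as did all 12 tags below 2-fold. Higher up it was less common, in 103 of the lowest 0.1% of tags (212 tags, up to -0.70) and in 98 of the 1931 tags (5.08%) from -1 to -0.5. At a 1.5-fold threshold 89 tags (0.0421%) were below by limma treat, and 78 of them held it. Of the 31 tags below 2-fold against the H520 input, 20 held it. Among all tags 217 (0.103%) held these letters on the listed strand. GGTAAGT matches the letters of the 5′ splice donor, the site at the start of an intron that pairs with the U1 small nuclear RNA. A match is a description of the letters, and splicing was not measured here.

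Low 1 had 3.50, 3.70, 3.34, 3.35 and 4.38 TPM of RNA in transfections 1 to 5, against 14.7 TPM in the A549 input and 15.02 TPM in the H520 input. All 5 RNA values were under both inputs, and transfection 5 was the highest. Its activity was -1.68 ± 0.18 (limma treat adjusted p = 0.00117) and -1.60 in H520 cells. Low 2 was at -1.65 ± 0.34, with its lowest value, -2.19, in transfection 3 (limma treat adjusted p = 0.0162). With edgeR and the input as a library its adjusted p was 0.525. Low 3 was at -1.58 ± 0.09 and Low 4 at -1.51 ± 0.12.

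Over all 217 tags with GGTAAGT, the median activity was -0.68, -0.70, -0.73, -0.65 and -0.60 in transfections 1 to 5, a mean of -0.67 ± 0.05. The median of all tags was -0.004. It was -0.64 ± 0.08 in the BaP libraries and -0.59 ± 0.02 in H520 cells against their own input. The H520 libraries took no part in setting the lower tail, and all 5 lay between -0.61 and -0.56. Of the 217 tags, 145 (66.8%) were under -0.5, and 78 (35.9%) were below 1.5-fold against 0.0421% of all tags. The letters were chosen from the low tags of these same A549 libraries, so these shares are a description. The reverse complement, ACTTACC, was held by 367 tags with a median of -0.02, and none of them was under -1.

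**Figure D5:**
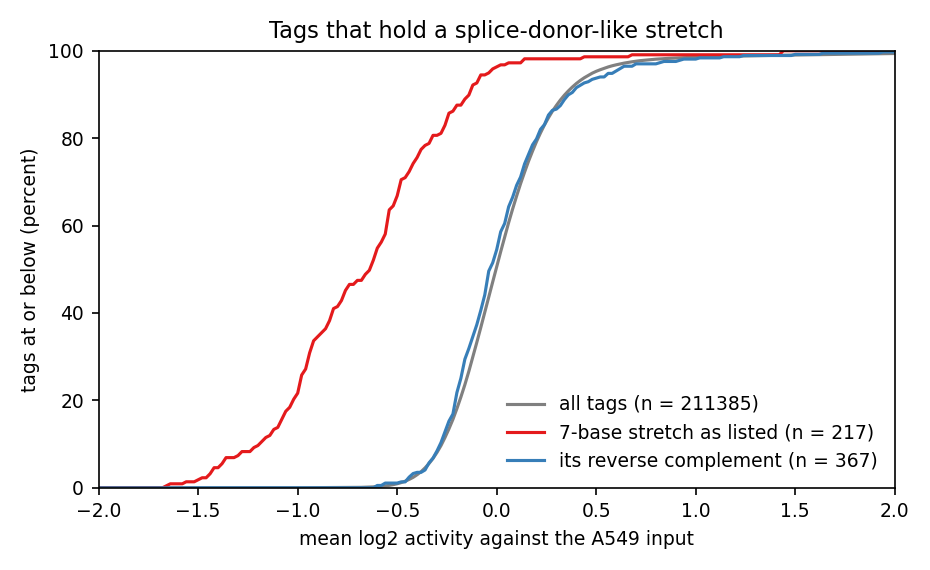
Cumulative percent of tags by mean log2 activity against the A549 input, for all 211385 tags, the 217 with the 7-base stretch as listed and the 367 with its reverse complement. The 217 tags are displaced to a median of -0.67, and the reverse complement follows all tags.

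Activity varied with where the letters stood and with each letter. With GGTAAGT starting at base 1 of the tag (48 tags) the median was -0.98, and 23 of the 48 were under -1. It was -0.67 at base 2 (53 tags), -0.76 at base 3 (35 tags), -0.49 at base 4 (25 tags), -0.56 at base 5 (29 tags) and -0.42 at base 6 (27 tags). With an A after the run (GGTAAGTA, 72 tags) it was -0.84 ± 0.08. Single changes of a letter, counted from 1 at the 5′ end of the run, left medians from -0.19 to -0.004 in the 15 of 21 changes that tags held. The lowest was A5G at -0.19 (81 tags), followed by T7C and T7A, both at -0.13. G2A was at -0.005 (242 tags) and G6A at -0.008 (163 tags). T3A, which like G2A changes the GT pair that begins an intron, was at -0.004 (21 tags). Some of the changed runs still held more low tags than the pool: 17.6% of tags with T7A, 13.6% with A5G and 12.9% with T7C were under -0.5, against 0.937% of all tags.

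A scan of all runs of 8 letters held by at least 50 tags (12570 runs, on the listed strand) placed the same letters lowest. The central 98% of medians lay between -0.13 and 0.13, and the 5 runs under -0.3 all held GTAAGT. At the upper end no run came near the activity of the top tags. The highest was TGCCCGGG (76 tags), with medians of 0.54, 0.53, 0.52, 0.42 and 0.43 in transfections 1 to 5. Its reverse complement was held by 0 tags, and TGCCCGGG itself always started at base 6 or 7 and so included constant bases. Of its 76 tags 23 (30.3%) were above 2-fold, against 0.978% of all tags. In H520 cells it stood at 0.06 ± 0.01. The overlapping run GCCCGGGC (114 tags, 24 above 2-fold), always from base 8 and so also with constant bases, was at 0.33 ± 0.08 in A549 and 0.09 ± 0.01 in H520. TTGCGTCA (86 tags) went the other way, at 0.36 ± 0.02 in A549 and 1.34 ± 0.12 in H520. Its letters join TTGC, a half-site of C/EBP factors, to GTCA, a half-site of CREB and ATF factors. Its reverse complement TGACGCAA (76 tags) was at 0.10 ± 0.04 and 0.30 ± 0.02.

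The letters ATGGCGG, the core of the sequence bound by YY1, a zinc finger protein that can activate or repress, were in 210 tags (0.0993% of all), always from base 8 and so including constant bases. Their median was 0.27 ± 0.02 in A549 and 0.55 ± 0.03 in H520. The reverse complement CCGCCAT (189 tags) was at 0.22 ± 0.03 and 0.57 ± 0.02. The overlapping letters AAGATGG (350 tags), also always from base 8, were at 0.26 ± 0.05 and 0.44 ± 0.04. All 5 A549 libraries were above 0 for each of these. The differences between the lines were not tested for any of these runs, and the runs were picked from the scan.

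RNA reads were more concentrated in A549 than in H520. The 1% of tags with most reads (2114 tags, chosen in each library) held 16.3%, 11.8%, 11.9%, 16.8% and 19.1% of reads in A549 transfections 1 to 5, and 7.75%, 8.13%, 7.85%, 8.62% and 7.86% in H520. Every A549 library lay above every H520 library. The means were 15.2 ± 3.21% and 8.04 ± 0.354%, a difference of 7.13 percentage points (two-sided exact permutation test, p = 0.00794, the smallest that 5 against 5 can give; adjusted p = 0.00952 over 6 measures). Tags at 2-fold or more against the own input were 1.52 ± 0.142% of tags in A549 and 1.05 ± 0.0425% in H520, and held 15.4 ± 3.70% and 6.71 ± 0.457% of reads. With the H520 input for both lines the figures for A549 were 1.87 ± 0.137% of tags and 15.8 ± 3.64% of reads. Each of these 4 measures had the same exact p and adjusted p. The BaP libraries of A549 had 16.2 ± 3.88% of reads in the top 1% of tags. The labels give each line its own version of the input pool, so line and pool cannot be told apart for any of the 6 measures. With BaP the labels give 18 h in A549 and 42 h in H520, and they give no time for DMSO. A difference of time between the lines therefore cannot be told apart either.

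The width of activity from the 5% to the 95% point was 0.919 ± 0.0974 in A549 and 0.838 ± 0.0185 in H520, a difference of 0.0806 (exact permutation p = 0.0238, adjusted p = 0.0238). This rested largely on transfection 3 of A549. Without it the difference was 0.0377 (exact permutation p = 0.0476), and with at least 500 reads in both inputs it was 0.0479 (exact permutation p = 0.135).

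Base composition and depth moved with activity in some libraries. The number of G and C bases among the 12 variable bases went with the median activity in transfection 5, from -0.22 at 2 such bases (2229 tags) to 0.08 at 10 (624 tags). Transfections 1 and 2 ran the same way, from -0.21 and -0.22 to 0.07 and 0.12. Transfections 3 and 4 ran the other way, the latter from 0.02 to -0.11. The share of tags above 2-fold was 0.641% to 1.24% over these groups, and the part of composition in any result was not tested. By A549 input reads, the share above 2-fold was 0.261% at 100 to 199 reads and 1.69% at 2000 or more, and all 12 tags below 2-fold had at least 1000. The pseudocount of 0.5 TPM keeps tags with few input reads from low activities: 0 of the 6510 tags at 100 to 199 reads were at -0.5 or under. The median SD between transfections was 0.14 in the first of these groups and 0.08 in the last.

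Near the entry threshold little changed. The 1160 tags just inside, with 100 to 109 reads in the shallower input, had a median activity of 0.11, and the 1169 just outside, with 90 to 99 reads, had 0.11. Tags that differ by 1 base from a tag at 4 and over (772 tags) had a median of 0.09, against -0.004 for the rest under 4. Their share above 2-fold was 1.42% against 0.883%. No pair of the 5 libraries agreed within sampling noise, with a chi-square per degree of freedom of 6.11 to 81.9. Without molecular identifiers, this does not tell separate transfections from repeated amplification. Across tags, which are not independent, activity correlated between pairs at 0.795 to 0.960, and log2 TPM, which shares the plasmid abundance, at 0.971 to 0.995.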

How the data were processed

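Counts per tag came from amplicon sequencing of cDNA made from polyadenylated RNA, and of the plasmid pool, per the labels' protocols. The deposited counts are raw reads per tag, per the file headers, and no molecular identifiers are described, so reads are not independent molecules. The deposited TPM values equal a tag's count per M counts of its library, as recomputed. The submitters' processing notes name bcl2fastq; the sources used here do not say how reads were matched to tags.

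Of the 22 libraries 17 were read and the 5 H520 libraries with BaP were not used. An unlisted tag was taken as 0. The pseudocount was 0.5 TPM. The 5 A549 DMSO libraries were tested with limma 3.58.1 (treat, trend, robust) against 2-fold over all 211385 tags, with adjusted p of 0.05 as the threshold. The alternatives used edgeR 4.0.16 and DESeq2 1.42.0. edgeR's glmTreat needs 2 coefficients, so the offset alternative used an equivalent quasi-likelihood test against the 2-fold limits. Tests were checked on simulated counts, with the same dispersion for every tag and the input taken as exact. The check therefore covers neither the error of the input nor a spread that differs between tags. Lines were compared by exact permutation tests with SciPy 1.17.1. Intervals on shares of single libraries were computed at 95% (Wilson) and cover counting error only: with 333.5 M input reads the 0.350% share ran from 0.349% to 0.350%.

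Tags were named by rule among those with at least 500 counts in both inputs: 6 highest above 2-fold against each input, 4 lowest, 3 closest to 0, 3 with the largest and 3 with the smallest SD, and 3 with most RNA. The subject, ranges, classes and letter runs were chosen with earlier results of these data known. Deviations of same-numbered A549 and H520 transfections correlated at -0.10 to -0.01 across tags. No value for differently numbered transfections is given here, so whether the numbers pair them is not shown.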

Additional observations from a re-analysis of the deposited data

Results flagged for a closer look

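Among 50 groups of 5 libraries, 4 held a library far from the others, where chance gives about 1 in 20. Transfection 2 of A549 had the fewest tags at 2-fold or more against the H520 input, 1.64% against 1.87% to 1.96%. Transfection 3 had the widest activity from the 5% to the 95% point, 1.09 against 0.857 to 0.898. For Low 1 (GGTAAGTaagcgggc), transfection 5 stood at -1.38 and the others at -1.84 to -1.71. For Small SD 2 (gttatcgcgacgggc), transfection 4 stood at 1.40 and the others at 1.44 to 1.46.

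All 6 measures of concentration differed between A549 and H520 with DMSO by the exact permutation test. A549 was higher by 7.13 percentage points for the reads in the top 1% of tags. For tags at 2-fold or more it was higher by 0.467 points of tags and 8.65 points of reads against the own input, and by 0.817 and 9.07 points against the H520 input. The width was higher by 0.0806.

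Tags outside those described also held RNA reads. The 4401 tags with 0 reads in both inputs summed to a mean of 6.28 reads per M in the A549 DMSO libraries (4.51 to 9.97). For a single tag, a floor of 3 counts in a library comes to 0.00857 to 0.0147 per M. Per tag the mean was 0.00143 per M, which is under that floor, so the sum says nothing of a typical one of these tags. The highest count of any one of them in a library was 45.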

How the results depend on the processing

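The count of tags above 2-fold against the A549 input (2068) was 3518 at 1.5-fold, 412 at 4-fold and 1296 in edgeR with the input as a library, an alternative chosen after seeing the data. Leaving out each transfection gave 1507 to 2115. The 12 below were 6 at an adjusted p of 0.01, 89 at 1.5-fold, 19 without limma's trend and robust options and 31 in edgeR with an offset. They were 0 in limma at 4-fold (0 at unadjusted p under 0.05), 0 in limma with a pseudocount of 0.1 (54) and 0 in DESeq2 (27; adjusted over the 14668 tags it did not filter out). Leaving out a transfection gave 4 (without 1), 5 (without 2 or 4), 9 (without 5) and 15 (without 3).

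Against the H520 input, the 2260 above were 6085 at 1.5-fold, 560 at 4-fold and 1421 in edgeR with the input as a library, and 1818 to 2382 without each transfection. The 31 below were 18 at an adjusted p of 0.01, 1413 at 1.5-fold, 0 in limma at 4-fold (0 at unadjusted p), 109 and 14 with pseudocounts of 0.1 and 1, 289 in edgeR with an offset, and 15 to 37 without each transfection (15 without 2 or 4, 16 without 1, 20 without 5).

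With the transfection number as a replicate block, the 6 concentration differences stayed 7.13, 0.467, 8.65, 0.817, 9.07 and 0.0806 with exact p of 0.0625, and 0.125 for the width. A paired design of 5 cannot go below 0.0625. Without the block, leaving out each library gave 6.16 to 7.97, 0.433 to 0.525, 7.54 to 9.67, 0.796 to 0.876, 7.99 to 10.1 and 0.0377 to 0.0962. The width difference was 0.0479 among tags with 500 or more counts in each input. The GGTAAGT median, also followed after seeing the data, ran from -0.82 (pseudocount 0.1) to -0.57 (pseudocount 1), and from -0.69 to -0.66 without each transfection. The cause of these changes was not tested. No tag under 1000 A549 input reads was below 2-fold, and the count below stayed at 12 with a minimum of 10 or of 500 counts in both inputs. The pseudocount limits how low a tag with few input reads can fall, so these counts do not show that shallow tags are never low.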
